A study of Arabidopsis thaliana with 4 samples.

Results

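Proteins that are made at the endoplasmic reticulum (ER) leave it in vesicles that bud under the COPII coat. Budding starts when SEC12, an exchange factor in the ER membrane, loads the small GTPase SAR1 with GTP. SAR1 then recruits an inner layer of SEC23 and SEC24, of which SEC24 binds cargo, and an outer cage of SEC13 and SEC31. Plants carry several genes for most of these proteins, so that each coat component has paralogs whose transcripts can be followed one by one.

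The 10 genes described here encode the Arabidopsis coat proteins *SEC31A* (AT1G18830), *SEC31B* (AT3G63460), *SEC13A* (AT3G01340), *SEC13B* (AT2G30050) and *SEC24A* (AT3G07100), the GTPases *SARA1A* (AT1G09180), *SAR1B* (AT1G56330), *SAR1C* (AT4G02080) and *SAR1D* (AT3G62560), and the exchange factor *SEC12* (AT2G01470). They are 10 of the 25410 loci measured. The group was chosen by measured values of these same arrays, since *SEC31A* and *SARA1A* were much higher in *bli-1* than in Col-0, and the others were added as their paralogs and partners. Their differences between the genotypes are therefore given as a description. Where genes passing a threshold are counted, the count is not read as a test of them. All 10 genes had a probe on the array, 17 probes in all, and lie on chromosomes 1 to 4, with 3 genes on chromosome 1, 2 on chromosome 2, 4 on chromosome 3 and 1 on chromosome 4.

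The series compared whole seedlings of the wild type Col-0 with seedlings of *bli-1*, a line with a T-DNA insertion in *BLISTER* (*BLI*), whose protein interacts with the Polycomb group protein CLF. Both genotypes were 12 days old, had grown in continuous light on half-strength MS medium with sucrose, and no other allele or treatment is named in the labels. Each genotype was represented by 2 biological replicates, each hybridized with Cy3-labelled RNA to a single color 44 k Agilent array. All values come from 1 mutant allele and from whole seedlings, so that a change in the RNA of each cell and a change in the number of cells of a type cannot be told apart. According to the study's methods *bli* seeds germinate late and were sown earlier where lines were compared directly, and the labels count the age from germination.

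Slide 1 held 3 arrays, those of Col-0 and of *bli-1* replicate 2, and slide 2 held *bli-1* replicate 1, so that slide and the difference between the *bli-1* replicates cannot be told apart. Between 74.7% and 77.4% of the gene spots were well above background on 3 arrays and 91.7% on that of *bli-1* replicate 2, where the lower quartile of the intensity was 129.5 units against 27 to 29 on the others. The median difference between the replicates of a genotype was 0.11 on the log2 scale in Col-0 and 0.22 in *bli-1*. All 5 leaf markers and all 5 root markers looked at were well above background on all 4 arrays, against 1 of 5 seed markers and 2 of 5 flower and pollen markers. Marker intensities were summed after normalization, on the linear scale, and include for each gene the offset added in background correction. These sums are therefore not raw intensities, and the offset makes the ratios between dim sums smaller. The seed markers summed to 440 and 402 in Col-0 and to 438 and 889 in *bli-1*. By gene their log2 differences were 1.16 for *EM6* and between −0.14 and 0.68 for the others. The flower and pollen markers summed to 513 and 517 in Col-0 and to 759 and 922 in *bli-1*. Here *PI*, which the paper names as a Polycomb target up-regulated in *bli-1*, differed most, by 1.22. *AP1* was at 0.67 and the others between 0.18 and 0.30. On *bli-1* replicate 1 *AG* lay between the Col-0 arrays. Whether these sums follow the amount of a tissue was not tested. The root markers summed to 31526 and 26605 in Col-0 and to 40971 and 21749 in *bli-1* replicates 1 and 2. None of the 10 genes but *SEC31A* was below this detection mark on any array, and the part of these markers in their values was not tested. *BLI* itself (AT3G23980) was at 9.17 and 8.99 in Col-0 and at 7.38 and 7.68 in *bli-1*, a difference of −1.55 on the log2 scale (limma, adjusted p = 0.0823), which did not pass the threshold. Its 2 probes differed, with differences of −0.42 and −2.67, and where they lie relative to the insertion was not looked at.

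*SEC31A* had the highest log2 difference of all 25410 loci. Its intensity after normalization was 6.47 and 6.73 on the log2 scale in the Col-0 replicates and 13.06 and 12.93 in the *bli-1* replicates. The 4 arrays fell into a dim pair and a bright pair that lay far apart. Means were 6.60 ± 0.18 (SD, n = 2) in Col-0 and 12.99 ± 0.09 (SD, n = 2) in *bli-1*, which is a difference of 6.40, or 84.2-fold. Before any normalization the single probe of *SEC31A* read 27 and 43 intensity units in Col-0 and 9634 and 9304 units in *bli-1*. The glass beside these spots read between 16 and 19 units, so that the Col-0 spots were close to empty and the scanner software marked only 1 of the 2 Col-0 spots, that of replicate 2, as well above background. The size of the fold change therefore rests on a dim wild type signal. It ranged from 6.14 to 9.28 over 16 other ways of processing the arrays, always with *bli-1* higher. Some of these ways, such as other options of the statistics or a replicate block, cannot change the difference.

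*SEC31B*, the other gene for the large subunit of the outer cage, did not separate the genotypes. It was at 10.37 and 10.42 in Col-0 and at 10.53 and 10.41 in *bli-1*, so that *bli-1* replicate 2 lay between the wild type arrays. The difference was 0.08 and ranged from 0.02 to 0.14 over the same 16 alternatives. Its raw intensity was 869 and 1354 units on the Col-0 arrays and 1647 and 1637 on those of *bli-1*. The median gene spot of these arrays also read less for the wild type than for the mutant, at 139.5 and 187 units against 208 and 319, and after quantile normalization the genotypes overlapped at *SEC31B*.

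The 4 measured genes for SAR1, the GTPase that starts coat assembly, are given from the largest to the smallest difference. *SARA1A* was selected for its difference, so that its first place is not a result. *SARA1A* was at 7.55 and 7.70 in Col-0 and at 10.37 and 10.49 in *bli-1*. The replicates of each genotype lay close together, and the genotype means of 7.63 ± 0.11 and 10.43 ± 0.09 (SD, n = 2 each) differed by 2.81, or 6.99-fold. This was the 12th highest difference of the 25410 loci, and it ranged from 2.76 to 3.65 over the 16 alternatives, highest with the processed signal of the scanner software. The probe of *SARA1A* read 96 and 140 raw units on the Col-0 arrays and 1461 and 1724 on those of *bli-1*, and was well above background on all 4 arrays.

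*SAR1B* followed with a difference of 0.99, or 1.99-fold. It was at 11.79 and 11.42 in Col-0 and at 12.58 and 12.61 in *bli-1*. The wild type replicates were farther apart than those of the mutant, but both mutant arrays lay above both. *SAR1B* was read by 3 probes, whose own differences were 0.92, 1.01 and 1.04. For *SAR1C* the values were 10.21 and 10.32 on the Col-0 arrays and 10.69 and 10.77 on those of *bli-1*, a difference of 0.46 or 1.38-fold, again without overlap. *SAR1D* was at 10.83 and 11.02 in Col-0 and at 11.11 and 11.16 in *bli-1*. Its difference of 0.21 compares with an SD of 0.13 between the Col-0 arrays, and its 3 probes gave 0.17, 0.20 and 0.24. Over the 16 alternatives *SAR1B* ranged from 0.80 to 1.17, *SAR1C* from 0.33 to 0.51 and *SAR1D* from 0.11 to 0.30. The order of the 4 GTPase genes by their differences was kept, though some alternatives cannot change a difference.

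*SEC12*, the exchange factor that activates SAR1, was at 10.88 and 10.71 in Col-0 and at 11.11 and 10.92 in *bli-1*. The gap between the highest wild type and the lowest mutant array was 0.04, far less than the distance between replicates, and the difference of the means was 0.22. *SEC13A* and *SEC13B* encode the smaller partner of SEC31 in the cage. *SEC13A* was at 9.58 and 9.50 in Col-0 and at 9.60 and 9.68 in *bli-1*, with a difference of 0.10, and its 2 probes gave 0.21 and −0.00. *SEC13B* was at 10.67 and 10.60 in Col-0 and at 10.70 and 10.83 in *bli-1*, with a difference of 0.13. Both genes were separated between the genotypes by only 0.03.

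*SEC24A*, which encodes a cargo-binding subunit of the inner coat and is also known as *ERMO2*, had the smallest difference of the group. It was at 10.69 and 10.66 in Col-0 and at 10.74 and 10.62 in *bli-1*, and both wild type arrays lay between the mutant arrays. The mean difference was 0.00, its 3 probes gave −0.01, −0.01 and 0.03, and it was above 0 in 12 and below 0 in 4 of the 16 alternatives.

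**Figure D1:**
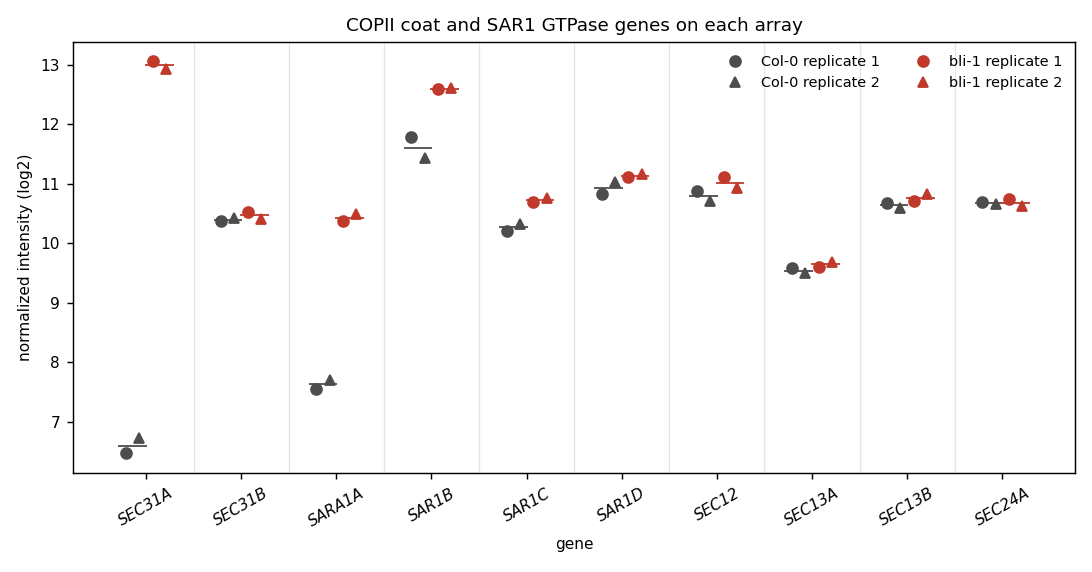
Normalized intensity of the 10 genes on the log2 scale (vertical axis) on each of the 4 arrays, with Col-0 in grey, *bli-1* in red, replicate 1 as circles, replicate 2 as triangles and short lines for the mean of each genotype. *SEC31A*, *SARA1A* and *SAR1B* show mutant arrays well above the wild type arrays, and levels of different genes come from different probes and are not to be compared.

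Of the 10 genes, 3 differed by at least 1.5-fold, all with *bli-1* higher, and their median difference was 0.21 against −0.005 over all 34290 genes and transcripts tested. *SEC31A* and *SARA1A* passed an adjusted p of 0.05 (limma, Benjamini-Hochberg) together with a change of at least 1.5-fold, as did 0.0962% of all tested features in the direction of higher in *bli-1* and 0.0175% in the direction of lower. At an unadjusted p of 0.05 and the same fold change *SAR1B* was added, for 3 genes of 10, where 2.48% of all features were higher and 2.69% lower. The arrays of the genotypes did not overlap for 8 of the 10 genes, against 44.2% of all features. Since the group was selected on this contrast, nothing is read from these counts.

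Relative to the median of all features, the larger differences kept their direction under other scalings of the arrays, while the small ones did not. Scaling to the 75th percentile in place of quantile normalization moved the median of all features to 0.27 with the scanner software's own corrected signal and to −0.12 after normexp background correction. Relative to these medians *SEC31A* was at 9.00 and 6.43, *SARA1A* at 3.37 and 2.90 and *SAR1B* at 0.68 and 1.13. *SAR1C* was at 0.07 and 0.60. The other 6 genes turned from above the median after normexp to below it with the software's signal, where they lay between −0.25 and −0.04, so that no direction is given for *SEC31B*, *SAR1D*, *SEC12*, *SEC13A*, *SEC13B* and *SEC24A*. The median of the 10 genes was 0.23 with the software's signal, below that of all features, and 0.24 after normexp. The calls depended on the processing, and *SEC31A* passed the adjusted threshold in 7 and *SARA1A* in 6 of the 16 alternatives. Under both 75th percentile scalings 0 of the 10 genes passed, as when either Col-0 array or *bli-1* replicate 2 was left out. Without 1 of these 3 arrays the differences of *SEC31A* were between 6.34 and 6.63 and those of *SARA1A* between 2.79 and 2.83. Both genes were chosen by this contrast, so that their calls lend it no support.

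**Figure D2:**
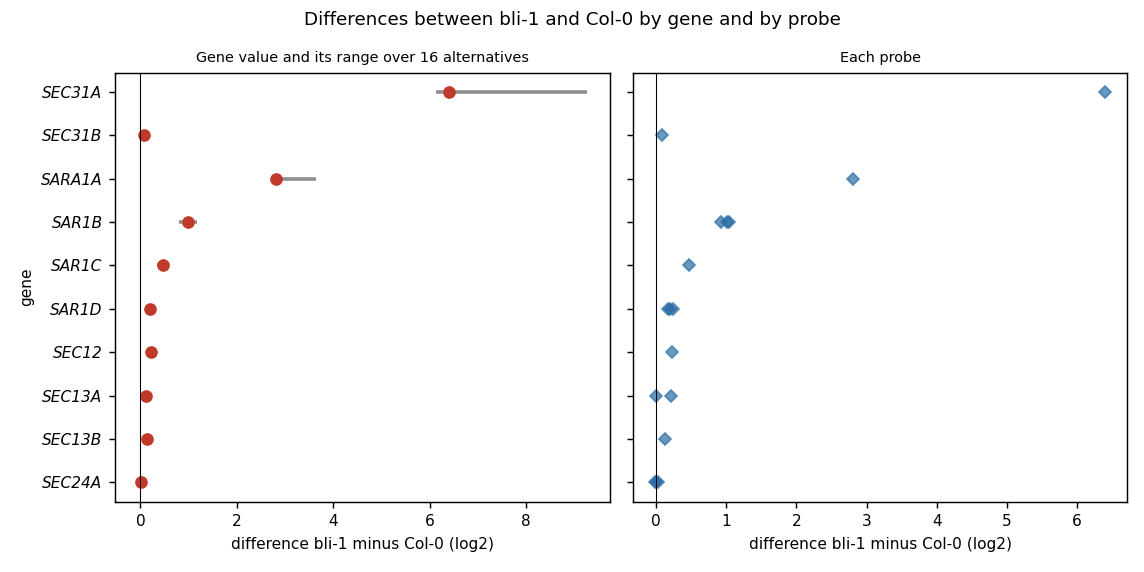
Differences between *bli-1* and Col-0 on the log2 scale (horizontal axes) for the 10 genes. In the left panel points give the difference and grey lines its range over 16 alternative ways of processing, and in the right panel each diamond is 1 of the 17 probes. *SEC31A* ranges from 6.14 to 9.28 and *SARA1A* from 2.76 to 3.65, and the probes of *SAR1B* lie between 0.92 and 1.04.

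The remaining genes of the COPII machinery were looked at as a list of 15, with further SEC23 and SEC24 paralogs, the scaffold SEC16 of ER exit sites, relatives of SEC12 and a SAR1-like gene. Probes were matched for 13 of them, not for the SAR1-like gene AT1G02620 and the SEC12-like gene AT5G50650. Over all features 16849 were higher and 17441 lower in *bli-1*, which is the split against which the lists stand. It includes more dim features than most lists do. Well above background on all 4 arrays were 22932 of 34290 features, 13 of the 13 genes here, 18 of 19 COPI genes, 13 of 19 cargo receptors and 20 of 20 SNAREs and their partners. Of all features 0.0962% passed the adjusted threshold upward and 0.0175% downward, and 2.48% and 2.69% passed an unadjusted p with 1.5-fold. With the software's signal scaled to the 75th percentile, the list medians were 0.13 for these genes, 0.12 for COPI, 0.44 for cargo receptors and 0.19 for SNAREs and their partners, against 0.27 for all features, so that 3 of the 4 lists turned to below the array-wide median and only cargo receptors did not. Of these 13 genes 10 were higher and 3 lower in *bli-1*, with a median difference of 0.11, and 0 passed the adjusted threshold (limma), while 1 passed at an unadjusted p. This was the cargo-binding coat gene *SEC24B* (AT3G44340), at 10.12 and 10.02 on the Col-0 arrays and 11.17 and 11.06 on those of *bli-1*. Its difference of 1.05 ± 0.13 (SE), or 2.07-fold, was the largest of the list and had an adjusted p of 0.113. *SEC24C* (AT4G32640) was at −0.18. All measured genes of the SEC23 family lay between 0.01 and 0.42, with AT4G14160 highest, and *SEC16B* (AT5G47490) had the lowest value at −0.29 ± 0.16 (SE, adjusted p = 0.621). *PHF1* (AT3G52190), a relative of SEC12 needed for the exit of phosphate transporters from the ER, was at 0.56. *SEC24C*, AT4G14160 and *PHF1* were named after their values were seen.

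COPI coats, assembled by ARF1 GTPases, bud from the Golgi apparatus and return proteins to the ER. Of 21 such genes 19 were measured, of which 11 were higher and 8 lower in *bli-1* with a median difference of 0.09. Here 2 genes rose and 0 fell by the adjusted threshold, which 0.0962% of all features passed upward and 0.0175% downward. This list, like the others, was chosen with earlier results of these data known, and nothing is read from this count. The β′-COP gene AT3G15980, for a coat subunit that binds retrieval signals, was at 9.67 and 9.61 in Col-0 and at 11.94 and 11.99 in *bli-1*. Its arrays were close within each genotype, and the rise was 2.33 ± 0.12 (SE), or 5.02-fold (limma, adjusted p = 0.0207). Its paralog AT1G52360 was at −0.05. The ARF1 GTPase gene *ARFA1D* (AT1G70490) was at 15.26 and 15.31 in Col-0 and at 17.20 and 17.08 in *bli-1*, a rise of 1.85 ± 0.13 (SE), or 3.61-fold (limma, adjusted p = 0.0406). The ARF1 genes *ARFA1A*, *ARFA1C*, *ARFA1E* and *ARFA1F* lay between 0.14 and 0.32. The α-COP gene AT1G62020 reached 0.87 ± 0.13 (SE, adjusted p = 0.138) and passed only at an unadjusted p, and the other α-COP gene AT2G21390 was at −0.15.

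Both COPI calls were lost in 10 of 16 alternatives, among them the fits without either Col-0 array and without *bli-1* replicate 2, while the differences stayed between 2.28 and 2.43 for AT3G15980 and between 1.62 and 1.94 for *ARFA1D*. The lowest value of this list, −0.90 for the β-COP gene AT4G31490, came from a missing spot. On Col-0 replicate 1 the dimmer of its 2 probes was marked as an outlier and left out, so that the mean there was that of the brighter probe, 11.95, against 10.12 to 10.21 on the other arrays. By probe the differences were 0.01 and −0.17. No spot of the 10 COPII and SAR1 genes was marked in this way.

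Cargo receptors of the early secretory pathway comprised p24 proteins, the ERD2 receptors of ER retention signals and cornichon proteins. All 19 genes had probes, of which 13 were well above background on all arrays. Of the 19 genes 13 were higher and 6 lower in *bli-1*, the median was 0.14, and 0 passed the adjusted threshold (limma). At an unadjusted p and 1.5-fold, 2.48% of all features were higher and 2.69% lower. In this list 2 p24 genes passed, AT1G14010 at 0.84 ± 0.19 (SE, adjusted p = 0.256) and AT1G21900 at 0.69 ± 0.13 (SE, adjusted p = 0.199). The lowest value among those detected on all arrays was −0.15 for the cornichon gene AT3G12180 (adjusted p = 0.671).

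SNAREs, tethers and RAB GTPases, which join ER-derived vesicles to the Golgi apparatus, were represented by 20 genes. Of these 17 were higher and 3 lower, with a median of 0.17, where all features split into 16849 higher and 17441 lower. With the software's signal scaled to the 75th percentile the list median was 0.19, below the 0.27 of all features. The adjusted threshold (limma) was passed by 0 of the 20 genes. *SEC22* (AT1G11890), a SNARE of vesicles between ER and Golgi, passed at an unadjusted p with 0.60 ± 0.13 (SE, adjusted p = 0.247). By that threshold 2.48% of all features were higher and 2.69% lower. *NSF* (AT4G04910), the ATPase that takes used SNARE complexes apart, was lowest at −0.20 ± 0.19 (SE, adjusted p = 0.705), and its 2 probes gave 0.10 and −0.49.

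**Figure D3:**
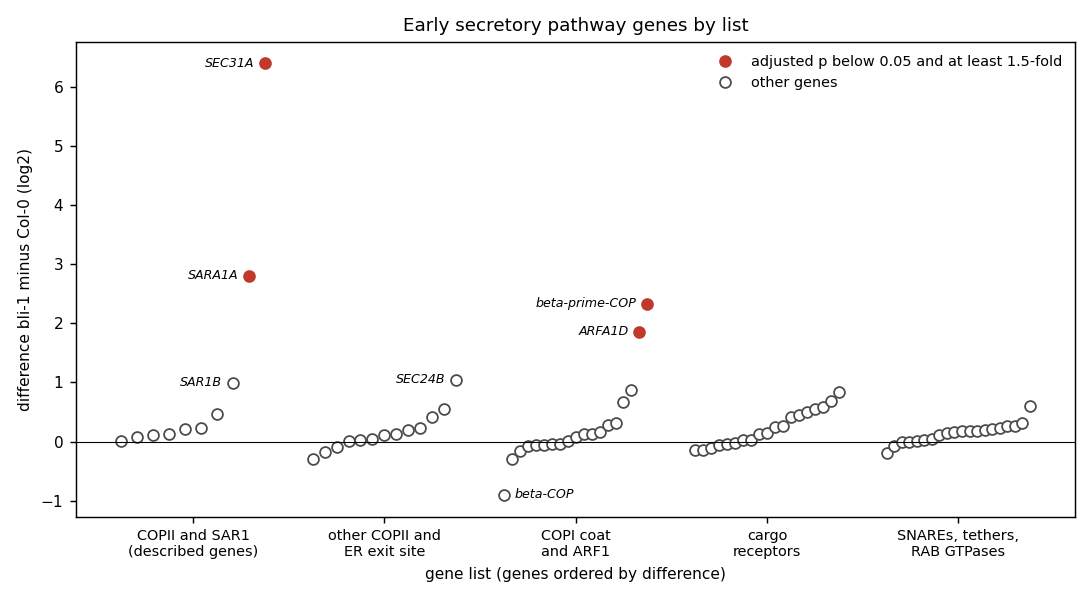
Differences between *bli-1* and Col-0 on the log2 scale (vertical axis) for the 10 COPII and SAR1 genes and for the measured genes of 4 other lists of the early secretory pathway, ordered within each list. Filled points passed an adjusted p of 0.05 and 1.5-fold. They are *SEC31A* and *SARA1A*, which were selected on this contrast, and the genes for β′-COP (AT3G15980) and *ARFA1D*. The 4 other lists were chosen with earlier results of these data known. The low β-COP value of −0.90 comes from a missing spot.

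Array by array, the loci whose pattern was most like that of *SEC31A* were *NAC103*, AT5G55270 and *BIP3*. Likeness was taken as the distance between 2 loci over the 4 arrays, each as log2 minus its Col-0 mean, among loci well above background on both *bli-1* arrays. *NAC103* (AT5G64060), a NAC transcription factor gene, was at 6.82 and 6.69 in Col-0 and at 10.78 and 10.90 in *bli-1*, with a distance of 3.28. AT5G55270 rose by 3.73 (distance 3.78), and *BIP3* (AT1G09080), which encodes an ER chaperone of the HSP70 class, by 3.65 (distance 3.90), with 1 of 2 Col-0 arrays well above background. No locus came close to *SEC31A*, whose difference was 6.40 against 4.09 for *NAC103*. By difference *NAC103*, AT5G55270 and *BIP3* ranked 2, 3 and 4 of all loci, so that the distance returned the next largest differences. For *SARA1A* the nearest loci were AT5G53240 (distance 0.15), AT5G53230 (distance 0.24) and *TIN1* (AT5G64510, distance 0.40). AT5G53240 and AT5G53230 were not well above background on either Col-0 array and were at least 7.09-fold and at least 7.67-fold higher in *bli-1*. Their distances to *SARA1A* thus rest on undetected wild type signals. *TIN1* rose from 8.13 and 7.95 to 10.69 and 10.60. These 6 loci were picked by their likeness on the contrast itself and lend no support to it.

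**Figure D4:**
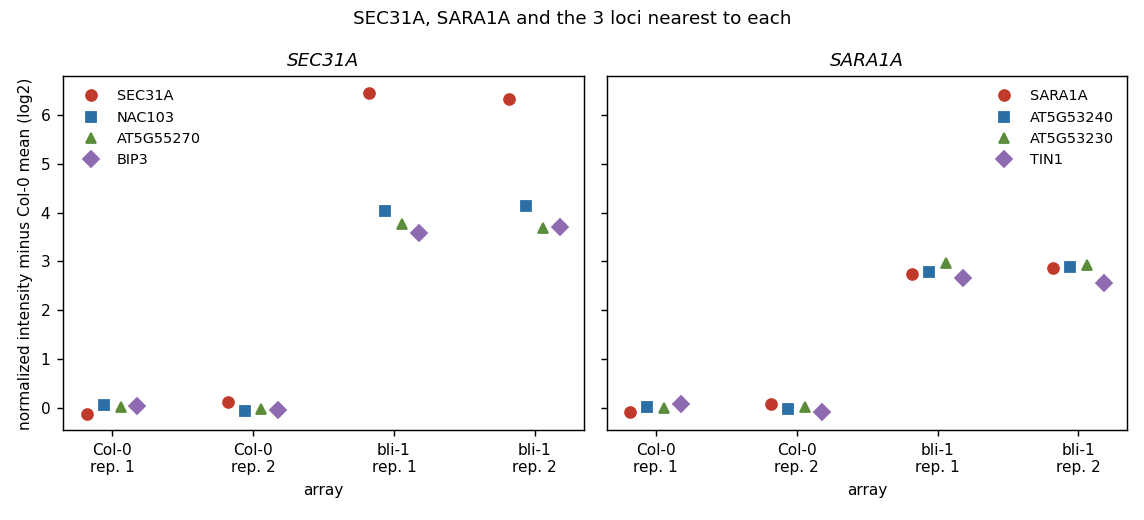
Intensity on the log2 scale minus the Col-0 mean of the same locus (vertical axis) on the 4 arrays for *SEC31A* (left) and *SARA1A* (right), each with the 3 loci nearest to it. On the *bli-1* arrays *SEC31A* lies above its nearest loci, whose differences were 3.65 to 4.09, and *SARA1A* lies among its own.

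The loci next to the 10 genes on the chromosomes were compared as well. The 2 tested loci on each side of every gene, 40 in all, were looked at after the values of the 10 genes were seen. They ranged from −0.87 to 0.47, and 0 of them passed the adjusted threshold (limma). At an unadjusted p and 1.5-fold, 2.48% of all features were higher and 2.69% lower. Of the 40 loci 2 passed this, both lower in *bli-1*, and nothing is read from this count. The first was AT1G18810, the tested locus next to *SEC31A*, at 10.00 and 10.38 on the Col-0 arrays and 9.30 and 9.34 on those of *bli-1* (adjusted p = 0.220), and the other was AT3G63450 beside *SEC31B* at −0.62 (adjusted p = 0.230). On the other side of *SEC31A*, *MIF3* was at −0.36. The loci next to *SARA1A*, AT1G09176 and AT1G09190, were at −0.44 and 0.05.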

How the data were processed

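RNA of Col-0 seedlings and of *bli-1* seedlings was hybridized to single color arrays, 2 per genotype, and replicates are given by the labels as biological. The authors deposited Feature Extraction 11.0.1.1 tables with the median intensity and local background intensity of every spot, without normalization between arrays. Background correction, quantile normalization and empirical Bayes statistics of limma are named in the study's methods, without the kind of correction, so that normexp was chosen here, with its offset set to 50 (R 4.3.3, limma 3.58.1). This offset makes the fold changes of dim genes smaller. Control spots were then left out and outlier spots set to missing. Of 43803 gene spots 34432 were matched to a locus through RefSeq accessions, and values were averaged first per probe and then per gene, giving 34290 features with 25410 loci.

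Genotypes were fitted with lmFit and eBayes, with p-values adjusted after Benjamini and Hochberg over all features. A gene was called with an adjusted p below 0.05 and a change of at least 1.5-fold. The number of arrays limits the precision, and an exact permutation test of 2 against 2 arrays cannot give a p below 0.333. The fit was tested on simulated data.

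The genes and lists were chosen with earlier results of these data known. Named were all 10 genes, *BLI*, in each list the called genes and the largest and smallest difference among genes well above background on all arrays, and the 3 loci nearest to *SEC31A* and to *SARA1A*. Further genes in the text fall outside this rule. Among them are paralogs of named genes, genes that passed only at an unadjusted p, neighbouring loci and single markers. Fold changes against a genotype with no array well above background are given as lower bounds. A left-out array was removed before normalization. Alternatives were other offsets, subtraction of the background, the software's processed signal, 75th percentile scaling, a filter on dim probes, keeping outlier spots, the brightest probe of a gene, eBayes with trend and robust options, slide or replicate number as a block, leaving out each array, and an unadjusted p. Probes of paralogs can share sequence; probe sequences and gene sequences were not used here.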

Additional observations from a re-analysis of the deposited data

How the results depend on the processing

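All 10 genes but *SEC24A* were higher in *bli-1* in all 16 alternatives, and *SEC24A* in 12, though some alternatives cannot change a difference. Relative to the median of all features under both 75th percentile scalings, *SEC31A*, *SARA1A*, *SAR1B* and *SAR1C* stayed above it. *SAR1C* did so by only 0.07 with the software's signal, and the other 6 genes had no settled direction. The count of calls was far less stable. Under the main settings chosen here 34 loci (28 higher, 6 lower) and 2 of the 10 genes were called. These are not the counts of the study, which reports more genes as changed in both directions. The cause of that gap was not tested. With an offset of 0, with background subtraction, with the processed signal under quantile or 75th percentile scaling, with 75th percentile scaling after normexp and with the replicate block the counts were 0 loci, 0 of the 10 genes and 0 COPI genes. The numbers of the replicates do not pair the samples in the labels, and deviations of same-numbered arrays correlated at 0.0725 across genes. An offset of 16 gave 9 loci, 1 of the 10 genes and 0 COPI genes. The filter on dim probes gave 99 loci and the trend and robust options 104. With slide as a block, 3987 loci were called (2063 higher, 1924 lower), with 3 of the 10 genes, 1 other COPII gene, 4 COPI genes, 3 cargo receptors and 1 SNARE. That fit rests on *bli-1* replicate 2 for the mutant, since the other mutant array is alone on its slide. An unadjusted p gave 1521 loci, 3 of the 10 genes, 1 other COPII gene, 3 COPI genes, 2 cargo receptors and 1 SNARE.

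Without 1 array the counts ranged from 0 to 3551 loci, from 0 to 3 of the 10 genes, from 0 to 1 for other COPII genes, from 0 to 4 for COPI genes, from 0 to 3 for cargo receptors and from 0 to 1 for SNAREs. The upper ends were all reached without *bli-1* replicate 1, and without any other array the counts were 0. Chosen after seeing the data, leaving out a *bli-1* array after normalization of all 4 gave 3987 loci without replicate 1 and 1817 without replicate 2, each with 3 of the 10 genes, so that the count of 0 without replicate 2 depends on normalizing the 3 arrays again. Of the differences of single genes, 19 of 160 moved by more than the replicate SD. The differences of *SEC31A* and *SARA1A* were largest with the processed signal (9.28 and 3.65), and the cause was not tested. For *SEC31A*, 1 of 2 Col-0 spots was not well above background.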
